A study of Homo sapiens with 6 samples.

Results

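The genes described here encode the core of the TGF-beta and activin pathway, and they were chosen by name. They comprise the ligand genes TGFB1, TGFB2 and INHBA, the receptor genes TGFBR1 and TGFBR2, the SMAD genes SMAD3 and SMAD4, and the inhibitor genes SMAD7, SKIL and PMEPA1. All 10 were found in the deposited table, each under its own name, among 25442 genes on the primary chromosomes. The samples were 6 RNA-seq libraries of YAPC, a human pancreatic ductal adenocarcinoma (PDA) line of the classical subtype. All cells carried rtTA, the activator that responds to doxycycline (Dox), and all were kept in Dox for 6 days in full growth medium. The 3 iGLI2 libraries came from cells with pRetroX-Tight-Puro driving Flag-tagged human GLI2, and the 3 iEV libraries from cells with the same vector left empty. Cells without Dox were not analysed here, and the sources used here do not say how many clones each line holds. Nor do they say whether the 3 libraries of a group were separate cultures, so p-values measure only the spread between these libraries.

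TGF-beta and activin are secreted dimers. TGF-beta leaves the cell in a latent form, bound by its own propeptide and by latent TGF-beta binding proteins, and has to be released. A ligand joins a type II receptor with a type I receptor, which phosphorylates SMAD2 and SMAD3, and these enter the nucleus with SMAD4. The pathway switches on its own inhibitors, SMAD7, SKIL and PMEPA1 among them. It restrains the growth of ductal cells, it can drive epithelial-to-mesenchymal transition, and SMAD4 is among the genes most often lost in PDA. GLI2 itself is known as a TGF-beta target in several cell types.

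Values are FPKM, which scale the fragments of a gene by its transcript length and by the size of the library, so levels can be set side by side between genes. Values of 3 libraries in a row stand for replicates 1, 2 and 3 in that order, and means are given ± SD over 3 libraries. GLI2 lay at 0.344 to 0.466 FPKM with the empty vector and at 94.5 to 207 FPKM in iGLI2 cells, with the lowest iGLI2 value in replicate 1. Of 6 ductal epithelial markers 4 had a mean of at least 1 FPKM, while KRT8 and KRT18 were listed at 0 in all 6 libraries. Their summed level was between 1890 and 2044 FPKM in iEV and between 1728 and 2010 FPKM in iGLI2 cells. EPCAM had a mean of 405 ± 11.4 FPKM in iEV and 523 ± 2.55 in iGLI2 cells, and CDH1 53.2 ± 2.77 and 68.9 ± 3.88. KRT7 and KRT19 had lower means in iGLI2 cells, with groups that overlapped. Because genes that epithelial cells use can be listed at 0, no 0 is read here as absence. Of 6 fibroblast markers 1, COL1A1, had a mean of at least 1 FPKM. The summed level of that list was between 1.36 and 1.57 FPKM in iEV and between 2.31 and 3.02 FPKM in iGLI2 cells, with DCN listed at 0. The leukocyte list, with CD14 as the only one of its 4 genes past 1 FPKM, summed to between 4.32 and 5.61 FPKM in iEV and between 1.41 and 2.12 FPKM in iGLI2 cells. Of the 4 endothelial markers none reached a mean of 1 FPKM. The part of these markers in the results was not tested. In bulk RNA, fewer cells that express a gene and less RNA per cell cannot be told apart.

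After 6 days of GLI2 induction the pathway genes moved in both directions. PMEPA1, SKIL and TGFB1 were higher in iGLI2 cells, SMAD3 and TGFB2 were lower, and TGFBR1, TGFBR2, SMAD4 and SMAD7 did not pass the test. INHBA, with a mean of 0.446 FPKM, was below the minimum of 1 FPKM for the test. The test was limma on log2(FPKM + 1), two-sided, with Benjamini-Hochberg adjustment over 12493 genes and a threshold of 0.05. Of the 9 genes tested 3 rose and 2 fell, where 10.1% of all tested genes rose and 11.8% fell (21.9% either way). Of all 2742 called genes 1262 were higher in iGLI2 cells. With small RNA genes left out and the libraries rescaled, 1784 of 3008 were, or 59.3%, and 3 of the 9 pathway genes again rose and 2 fell. The median log2 fold change of the 9 was 0.017, beside -0.015 over all genes tested. Groups did not overlap for 6 of the 9, as was so for 42.0% of all genes tested.

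**Figure D1:**
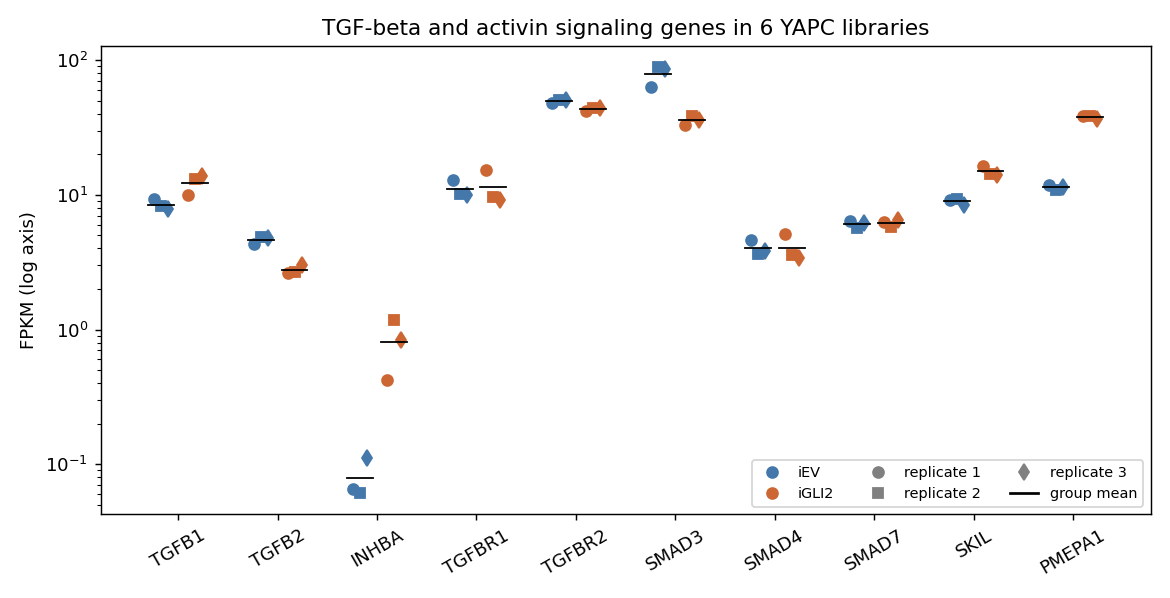
FPKM on a log axis for the 10 genes in each library, with iEV in blue, iGLI2 in orange, a marker shape for each replicate and a line at the group mean (n = 3). PMEPA1 and SKIL lie wholly higher and SMAD3 and TGFB2 wholly lower in iGLI2 cells, while TGFBR1 and SMAD4 share their range and have replicate 1 on top in both groups.

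**Figure D2:**
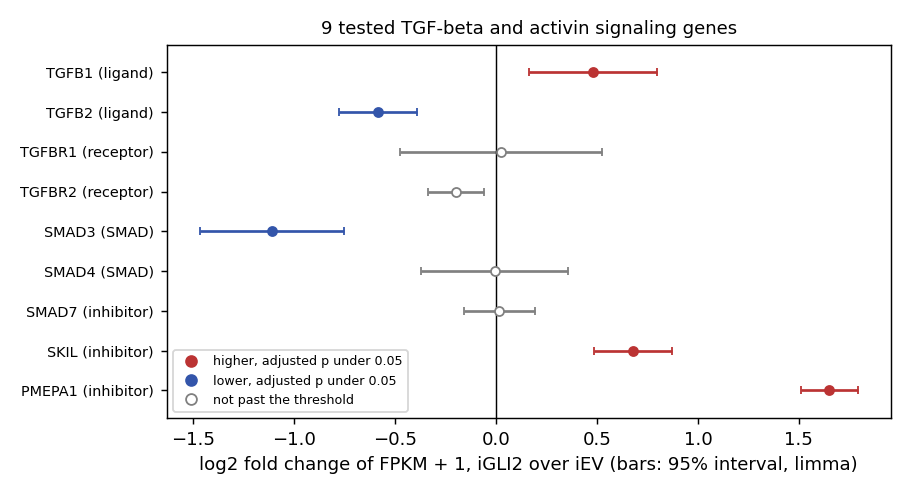
Log2 fold change of FPKM + 1 in iGLI2 over iEV cells for the 9 genes tested, with 95% intervals from limma and filled points for an adjusted p under 0.05. The estimates run from -1.11 for SMAD3 to 1.65 for PMEPA1, and the intervals of TGFBR1, SMAD4 and SMAD7 include 0.

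Among the ligands, TGFB1 rose and TGFB2 fell. TGFB1, which encodes the main TGF-beta ligand of epithelial tumors, lies on chromosome 19 of hg19 from 41836436 to 41859838. With the empty vector there were 9.25, 8.28 and 7.84 FPKM, and with GLI2 9.98, 13.2 and 13.7. The groups did not overlap, but iGLI2 replicate 1 was close to iEV replicate 1. On the log2 scale TGFB1 rose by 0.48 (SE 0.13, limma adjusted p = 0.0462). This call depends on single libraries, since without iEV replicate 1, 2 or 3 or iGLI2 replicate 2 or 3 the limma adjusted p lay between 0.0708 and 0.157. The call was also lost with no minimum level (limma adjusted p = 0.0666), with the replicate number as a block (0.0723) and with a block for the sample code digit (0.0803). Without iGLI2 replicate 1 the log2 fold change was 0.61 (limma adjusted p = 0.00666). TGFB1 shares exon sequence with HNRNPUL1 and TMEM91 on the opposite strand of the GENCODE annotation, and the counting is not stated to use strand. GENCODE starts the gene at 41807492, before the locus of the table. Whether either overlap falls within that locus was not checked.

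TGFB2, the ligand that needs a co-receptor to bind TGFBR2 well, starts at base 218517538 of chromosome 1. The iEV libraries held 4.29, 4.87 and 4.77 FPKM, the iGLI2 libraries 2.62, 2.66 and 3.02. Every iGLI2 library was below every iEV library. The log2 difference was -0.58 (SE 0.079, limma adjusted p = 0.00499). The locus that the table gives for TGFB2 runs to 219347130, whereas GENCODE ends the gene at 218617961, so the interval also takes in other annotated genes, and TGFB2-AS1 overlaps it on the opposite strand.

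The share of TGFB2 among the TGF-beta ligand transcripts was lower in each iGLI2 library than in any iEV library. TGFB2 made up 26.0%, 30.9% and 30.9% of the summed FPKM of TGFB1, TGFB2 and TGFB3 in iEV replicates 1, 2 and 3, and 17.7%, 14.7% and 15.9% across iGLI2. The mean was 29.3% ± 2.80 in iEV and 16.1% ± 1.48 in iGLI2 cells, a difference of -13.2 percentage points. An exact permutation test, two-sided, gave p = 0.1, the smallest that 3 libraries against 3 allow. TGFB1 made up 53.1% ± 2.72 of the sum in iEV and 70.8% ± 3.09 in iGLI2 cells.

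**Figure D3:**
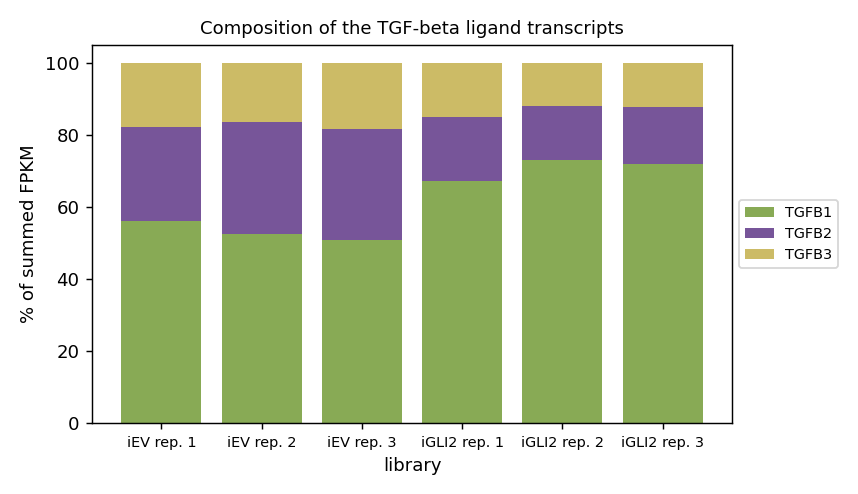
Shares of TGFB1, TGFB2 and TGFB3 in their summed FPKM, in percent, as stacked bars for the 6 libraries. The TGFB2 share runs from 26.0% to 30.9% with the empty vector and from 14.7% to 17.7% with GLI2.

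INHBA encodes the inhibin beta A chain, whose dimer is activin A. The locus that the table gives for it runs on chromosome 7 from 41728601 to 41818976. GENCODE puts the gene from 41706766 to 41745432, so the interval also takes in another annotated gene. The level of INHBA was low in iEV cells, with 0.0649, 0.0614 and 0.110 FPKM in replicates 1, 2 and 3. In iGLI2 replicates 1, 2 and 3 it had 0.422, 1.18 and 0.836 FPKM, each above every iEV library. The ratio of the group means was 10.3. When all 20035 genes with a value above 0 were tested, INHBA differed by 0.73 on the log2 scale (SE 0.15, limma adjusted p = 0.0310), held down by the added 1. In that same test, leaving out iEV replicate 1, 2 or 3 or iGLI2 replicate 2 or 3 raised the limma adjusted p to between 0.0661 and 0.118. INHBA-AS1 lies over INHBA exons on the opposite strand, and the reads behind these low values are unknown.

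For the receptors no change passed the test. TGFBR1, the type I receptor kinase that phosphorylates SMAD2 and SMAD3, lies on chromosome 9 from 101867371 to 101916473. With the empty vector there were 12.9, 10.2 and 9.89 FPKM, and with GLI2 15.4, 9.70 and 9.21. The groups overlapped, and replicate 1 was the highest of its group in both. The log2 fold change was 0.026 with a 95% interval from -0.47 to 0.53 (SE 0.20, limma adjusted p = 0.944). This fit thus leaves room for a change of about that size either way. With the replicate number as a block the estimate was the same and the SE was 0.084 (limma adjusted p = 0.831).

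TGFBR2, the type II receptor that binds the ligand, lies on chromosome 3 from 30647994 to 30735633. The iEV libraries held 48.0, 50.5 and 50.2 FPKM, the iGLI2 libraries 41.6, 43.8 and 43.9. The groups did not overlap and the spread within each was small. The log2 fold change was -0.20 with a 95% interval from -0.34 to -0.061 (limma adjusted p = 0.0540), which missed the threshold. Without iGLI2 replicate 1 the limma adjusted p was 0.0399, without iEV replicate 2 it was 0.182 and without iEV replicate 3 it was 0.155. After rescaling without small RNA genes the log2 fold change was -0.12 (limma adjusted p = 0.184). TGFBR2 transcripts were more abundant per length than those of TGFBR1 in all 6 libraries.

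The receptor-activated SMAD3 fell while its partner SMAD4 did not pass the test. SMAD3, which carries the signal from TGFBR1 to the nucleus, lies on chromosome 15 from 67358195 to 67487533. With the empty vector there were 62.8, 88.6 and 86.0 FPKM, and with GLI2 33.0, 38.5 and 35.8. Replicate 1 was the lowest of its group in both, and the groups were well apart. SMAD3 had a log2 fold change of -1.11 (SE 0.15; adjusted p from limma 0.00452), with extremes of -1.27 and -1.02 over the 6 fits that each lacked a library. The mean fell from 79.2 ± 14.2 to 35.8 ± 2.76 FPKM. Another annotated gene overlaps SMAD3 exons on the opposite strand, so reads of both may be counted together. SMAD2, the other receptor-activated SMAD of the pathway, was named after its values were seen. Its mean was 7.26 ± 0.704 FPKM with the empty vector and 8.22 ± 1.52 with GLI2 (limma adjusted p = 0.466).

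SMAD4, the shared partner of the receptor-activated SMADs, lies on chromosome 18 from 48556583 to 48611411. The iEV libraries held 4.59, 3.66 and 3.82 FPKM, the iGLI2 libraries 5.13, 3.58 and 3.41. As for TGFBR1, the groups overlapped and replicate 1 was the highest in both. The log2 fold change was -0.0071 with a 95% interval from -0.37 to 0.36 (limma adjusted p = 0.979). SMAD4 exons, too, are overlapped by an annotated gene on the opposite strand.

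Of the inhibitors PMEPA1 and SKIL rose, and SMAD7 had nearly equal means. PMEPA1 encodes a membrane protein that holds SMAD2 and SMAD3 away from the receptor, and it lies on chromosome 20 from 56223448 to 56287836. With the empty vector there were 11.9, 10.9 and 11.5 FPKM, and with GLI2 38.6, 38.6 and 36.9. The iGLI2 libraries lay close to each other, replicate 1 included, although its GLI2 level was the lowest. The ratio of the group means was 3.32, and the log2 fold change was 1.65 (SE 0.058, limma adjusted p = 0.000131). Over the 6 fits that each lacked a library it ran from 1.62 to 1.68. NKILA overlaps PMEPA1 exons on the opposite strand, so reads of both may be counted together.

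SKIL encodes SnoN, a nuclear repressor that binds SMAD complexes, and lies on chromosome 3 from 170075473 to 170114637. The iEV libraries held 9.09, 9.28 and 8.44 FPKM, the iGLI2 libraries 16.4, 14.4 and 14.0. Every iGLI2 library was above every iEV library, with replicate 1 the highest. SKIL rose by 0.68 on the log2 scale (SE 0.078, limma adjusted p = 0.00297).

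SMAD7, which blocks the type I receptor and recruits ubiquitin ligases to it, lies on chromosome 18 from 46446223 to 46477081. With the empty vector there were 6.40, 5.68 and 6.15 FPKM, and with GLI2 6.28, 5.73 and 6.49. The values of both groups were interleaved. The log2 fold change was 0.017 with a 95% interval from -0.16 to 0.19 (limma adjusted p = 0.890).

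The promoters of PMEPA1, SKIL, SMAD3 and TGFB2 are shown because these were called under every setting in which they were tested. Each is the 250 bases before the RefSeq start, 5′ to 3′ on the gene's strand, in build GRCh38.p14. The intervals are chr20:57711473-57711722 on the minus strand for PMEPA1, chr3:170357465-170357714 on the plus strand for SKIL, chr15:67065352-67065601 on the plus strand for SMAD3 and chr1:218345086-218345335 on the plus strand for TGFB2. Capitals mark a match to any of 4 motifs.
PMEPA1: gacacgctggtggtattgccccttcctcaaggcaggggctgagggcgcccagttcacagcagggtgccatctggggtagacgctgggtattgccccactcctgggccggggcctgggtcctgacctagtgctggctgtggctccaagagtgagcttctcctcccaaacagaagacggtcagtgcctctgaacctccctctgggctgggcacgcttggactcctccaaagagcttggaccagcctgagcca
SKIL: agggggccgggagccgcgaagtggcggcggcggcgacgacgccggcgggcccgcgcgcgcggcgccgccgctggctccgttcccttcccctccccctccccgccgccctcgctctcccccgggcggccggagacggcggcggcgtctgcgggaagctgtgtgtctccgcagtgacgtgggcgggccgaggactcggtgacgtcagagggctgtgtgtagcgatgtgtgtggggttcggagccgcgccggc
SMAD3: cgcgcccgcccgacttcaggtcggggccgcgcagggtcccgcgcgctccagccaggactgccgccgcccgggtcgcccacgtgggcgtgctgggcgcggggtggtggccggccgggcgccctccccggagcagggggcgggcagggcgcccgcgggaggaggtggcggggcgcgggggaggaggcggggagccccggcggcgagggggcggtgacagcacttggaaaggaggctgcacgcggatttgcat
TGFB2: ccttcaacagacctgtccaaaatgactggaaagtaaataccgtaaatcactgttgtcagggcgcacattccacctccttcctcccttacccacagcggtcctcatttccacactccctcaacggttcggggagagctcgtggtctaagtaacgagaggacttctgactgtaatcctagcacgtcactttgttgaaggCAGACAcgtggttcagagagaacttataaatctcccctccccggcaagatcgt

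All 10 genes matched a RefSeq promoter by symbol. The motifs were searched on both strands over the 250 bases before the start and the 50 after it, and none of them contains another. CAGACA, a SMAD box, was found in 2 of the 10 promoters, with its first base at -53 in TGFB2 and at 28 after the start in INHBA, and in 16.8% of 27305 promoters of the same length. The SMAD palindrome GTCTAGAC (0.201% of all promoters), the GLI consensus GACCACCCA (0.249%) and the AP-1 site TGANTCA (7.76%) had no match in the 10 promoters. A single RefSeq start was searched for each gene, and other starts and sequence outside these windows were not. The upstream stretches of the risen genes had 63.2% (PMEPA1) and 78.4% (SKIL) G and C, and those of the fallen genes 80.8% (SMAD3) and 50.4% (TGFB2).

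In order of level, SMAD3 and TGFBR2 had the highest FPKM of the 10 genes in iEV cells. PMEPA1, TGFBR1, SKIL, TGFB1, SMAD7, TGFB2, SMAD4 and INHBA followed. The ranges of PMEPA1 and TGFBR1, of SKIL and TGFB1, and of TGFB2 and SMAD4 overlapped, so their order within those pairs is not set. In iGLI2 cells TGFBR2 was the highest, followed by PMEPA1 and SMAD3, whose ranges overlapped. SKIL came next and did not overlap with TGFB1, whereas the range of TGFBR1 overlapped those of both. SMAD7, SMAD4, TGFB2 and INHBA followed without overlap.

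A list of 61 other genes of the pathway, chosen by their roles with earlier results of these data known, puts these values in context. Of these 46 reached the minimum level and were tested, and 12 rose and 3 fell, beside 10.1% and 11.8% of all tested genes. Their median log2 fold change was 0.18, against -0.015 over all genes tested. The count of 15 changed genes dropped to 5 without iEV replicate 2 or without iEV replicate 3. It was 6 without iGLI2 replicate 2 and 8 without iGLI2 replicate 3. Calls over all genes tested dropped too, from 2742 to 1223, 1303, 1357 and 1510 in the same order. Without iGLI2 replicate 1 both counts rose, to 19 and 3753. With small RNA genes left out and the libraries rescaled, 15 rose and 1 fell. Under that setting all genes shifted too, with 1784 of 12152 higher, 1224 lower and a median log2 fold change of 0.055.

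**Figure D4:**
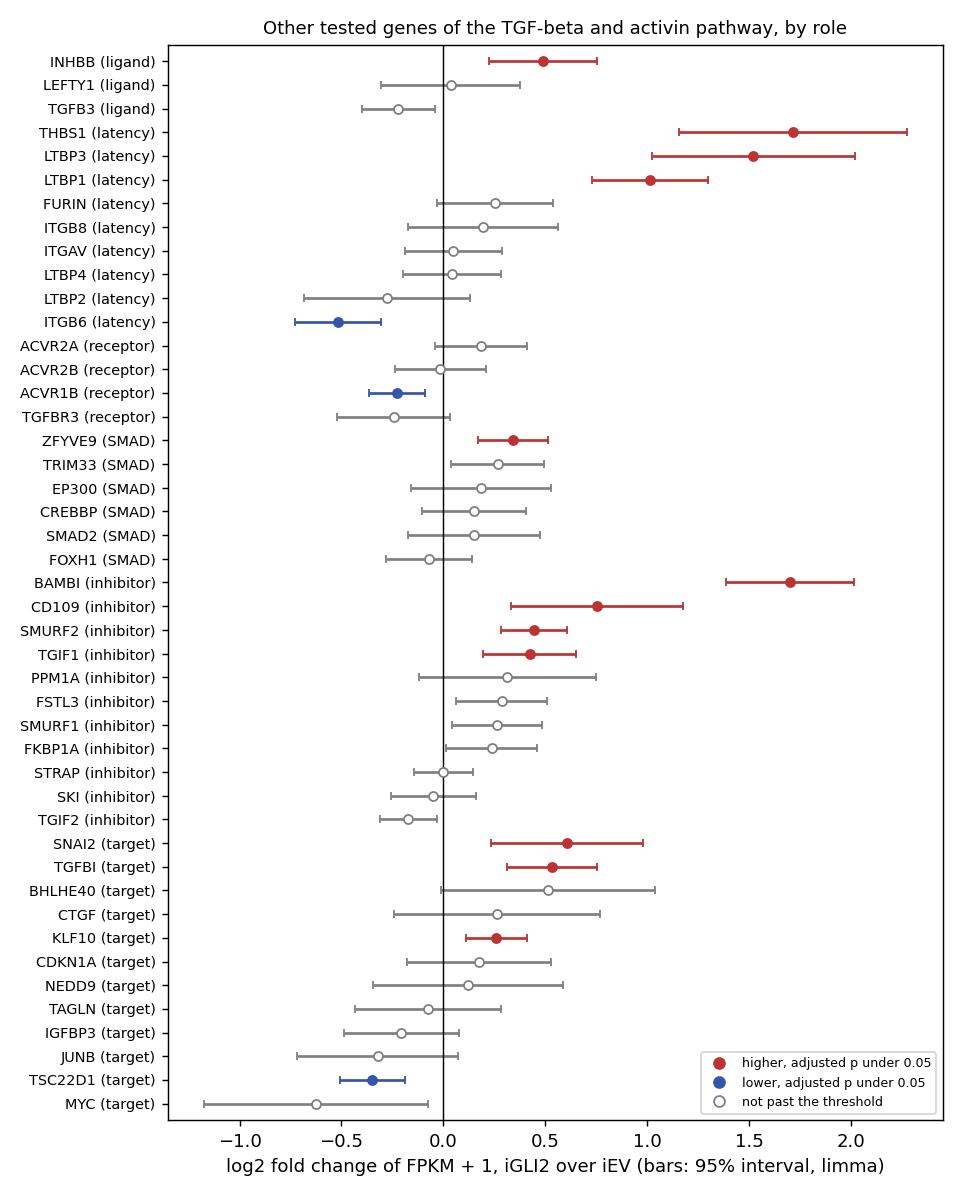
Log2 fold change of FPKM + 1 in iGLI2 over iEV cells, with 95% intervals from limma, for the other pathway genes tested, ordered by role, with 1 gene left out of the plot. THBS1 (1.72), BAMBI (1.70), LTBP3 (1.52) and LTBP1 (1.02) lie farthest to the right among the called genes, and ITGB6 (-0.52) lies farthest to the left among them.

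Among 9 tested genes for the storage and release of latent TGF-beta, 3 rose and 1 fell, where 10.1% of all tested genes rose and 11.8% fell. LTBP3, a latent TGF-beta binding protein, measured 48.5, 50.4 and 48.2 FPKM with the empty vector against 102, 163 and 174 with GLI2 (log2 fold change 1.52, limma adjusted p = 0.00474). THBS1, whose protein thrombospondin 1 can release TGF-beta from latency, measured 3.29, 4.76 and 4.56 FPKM with the empty vector against 11.2, 18.7 and 19.4 with GLI2 (log2 fold change 1.72, limma adjusted p = 0.00466). In both genes iGLI2 replicate 1 was the lowest of its group and still above every iEV library. LTBP1, of the same family as LTBP3, rose from a mean of 2.36 ± 0.282 FPKM to 5.82 ± 0.815, or on the log2 scale by 1.02 (limma adjusted p = 0.00289). ITGB6, the beta chain of the epithelial integrin that frees TGF-beta, fell from a mean of 26.2 ± 1.92 FPKM to 18.0 ± 1.48, with a log2 difference of -0.52 (limma adjusted p = 0.0105). The ITGB6 call was lost without iEV replicate 2, iEV replicate 3 or iGLI2 replicate 2, with a highest limma adjusted p of 0.0527.

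Of 11 other inhibitors tested 4 rose and none passed the test as lower, where 10.1% of all tested genes rose and 11.8% fell. BAMBI, a pseudoreceptor that blocks type I receptors, rose from 5.53, 4.69 and 4.70 FPKM in the iEV libraries to 15.2, 19.8 and 20.6 FPKM in the iGLI2 libraries. All iGLI2 libraries were far above the iEV libraries (log2 fold change 1.70, SE 0.13, limma adjusted p = 0.000759). SMURF2, a ubiquitin ligase that SMAD7 brings to the receptor, rose from 22.6 ± 0.575 to 31.2 ± 2.03 FPKM (limma adjusted p = 0.00726). CD109, a co-receptor that dampens the signal, rose from 37.5 ± 2.77 to 65.0 ± 16.1 FPKM (limma adjusted p = 0.0289), with the highest value, 83.4 FPKM, in iGLI2 replicate 1. TGIF1, a SMAD corepressor, rose from 50.8 ± 0.913 to 68.8 ± 7.81 FPKM (limma adjusted p = 0.0251). The CD109 call was lost without iEV replicate 1, 2 or 3 or iGLI2 replicate 2 (limma adjusted p up to 0.107). The TGIF1 call was lost without iEV replicate 1, 2 or 3 or iGLI2 replicate 2 or 3 (up to 0.0965). FKBP1A, the most abundant of these inhibitors and listed in one entry with SDCBP2, had 154 ± 7.61 and 182 ± 18.9 FPKM (limma adjusted p = 0.122).

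Among 3 other ligands, 4 other receptors and 6 SMAD partners tested, INHBB rose, ACVR1B fell and ZFYVE9 rose. Of all tested genes 21.9% were called. INHBB, which encodes the inhibin beta B chain of activin B, went from 19.9 ± 2.34 to 28.3 ± 2.65 FPKM (limma adjusted p = 0.0261). It was far above INHBA in all 6 libraries. ACVR1B, the type I receptor for activin, went from a mean of 12.6 ± 0.372 FPKM to 10.7 ± 0.397, with a log2 difference of -0.23 (limma adjusted p = 0.0373) that did not pass after rescaling without small RNA genes (-0.15, limma adjusted p = 0.199). The ACVR1B call held in 5 of 17 alternatives, and it was also lost under upper quartile scaling (limma adjusted p = 0.0708), quantile normalization (0.0516), no minimum level (0.0536) and a block for the sample code digit (0.0765). ZFYVE9, the anchor protein SARA that presents SMAD2 and SMAD3 to the receptor, went from 2.92 ± 0.149 to 3.97 ± 0.228 FPKM (limma adjusted p = 0.0210). CREBBP, a SMAD coactivator and the most abundant of its role, had 9.85 ± 0.348 and 11.1 ± 1.55 FPKM (limma adjusted p = 0.362). Leaving out iEV replicate 2, iEV replicate 3, iGLI2 replicate 2 or iGLI2 replicate 3 ended the calls of INHBB (limma adjusted p up to 0.104), ZFYVE9 (up to 0.0885) and ACVR1B (up to 0.145), and leaving out iEV replicate 1 also ended that of ACVR1B.

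Of 13 tested genes known as transcriptional targets of TGF-beta, 3 rose, 1 fell and 9 did not pass, where 21.9% of all tested genes were called. TGFBI, a secreted matrix protein, rose from 379, 314 and 323 FPKM in the iEV libraries to 508, 468 and 491 FPKM in the iGLI2 libraries (log2 fold change 0.53, limma adjusted p = 0.0113). SNAI2, a transcription factor of epithelial-to-mesenchymal transition, rose from 6.96 ± 1.29 to 11.1 ± 1.63 FPKM (limma adjusted p = 0.0379). KLF10, an early response factor, measured 31.0, 28.1 and 28.8 FPKM with the empty vector against 35.9, 35.7 and 34.1 with GLI2 (limma adjusted p = 0.0326). TSC22D1, a leucine zipper factor, fell from 34.5 ± 1.12 to 26.9 ± 1.54 FPKM (limma adjusted p = 0.0150). Without iEV replicate 2 or 3 the TGFBI call was lost (limma adjusted p up to 0.0552). Without iEV replicate 2 or 3 or iGLI2 replicate 2 or 3, the calls were lost of SNAI2 (limma adjusted p up to 0.131), KLF10 (up to 0.129) and TSC22D1 (up to 0.0663). TSC22D1 also did not pass after rescaling without small RNA genes (limma adjusted p = 0.0714). CTGF, a matricellular protein gene often used as a reporter of the pathway, was named after its values were seen and had 4.51 ± 1.16 FPKM with the empty vector and 5.58 ± 1.15 with GLI2 (limma adjusted p = 0.419).

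**Figure D5:**
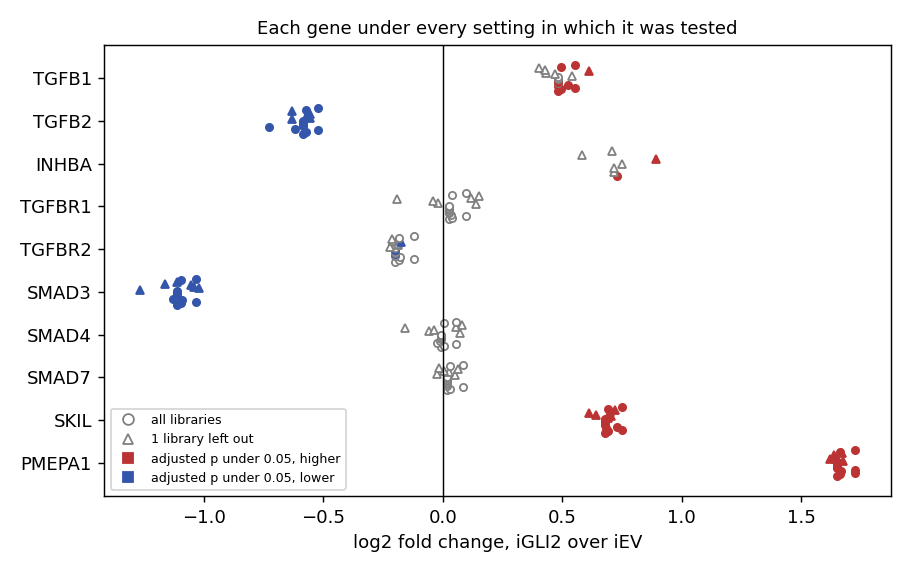
Log2 fold change (iGLI2 over iEV) of the 10 genes under each setting in which a gene was tested, with triangles for fits without 1 library and filled symbols for an adjusted p under 0.05. PMEPA1, SKIL, SMAD3 and TGFB2 keep filled symbols throughout, TGFB1 and INHBA lose them in several fits, and TGFBR1, SMAD4 and SMAD7 lie on both sides of 0.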

How the data were processed

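RNA was sequenced from 3 iEV and 3 iGLI2 libraries, grouped and numbered by their titles. The authors ran Trimmomatic on the reads, then TopHat2 against hg19, and then Cuffdiff (version 2.1.1 in the submitters' processing notes). The deposited table names no unit, and its values were read as the authors' FPKM from their form and totals. The annotation and any scaling between libraries are not given in the sources used here. Summed over genes on the primary chromosomes, FPKM came to between 981341 and 1082684 in iEV and between 803145 and 889555 in iGLI2 libraries. Without small RNA genes the sums were 534919 to 558196 in iEV and 489981 to 535950 in iGLI2 libraries. FPKM gives no read counts, so no counting error or detection limit is stated.

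Entries off the primary chromosomes (1252) and duplicate names with lower means (330) were left out of 27024. Spreadsheet dates that stood for more than 1 gene were kept apart. The other pathway genes, markers and motifs were chosen, like the 10 genes themselves, with earlier results of these data known. Genes averaging at least 1 FPKM were tested with limma 3.58.1 in R 4.3.3 on log2(FPKM + 1), with condition as the only term and an intensity trend, after the test was tried on simulated data. The pseudocount of 1 understates fold changes of low genes. The text names all 10 genes, each other pathway gene that was called and the most abundant tested gene of each role. Protein sequences were not analysed here. Tables and plots used Python 3.11.15. Values of 1 gene of the other pathway list are not reported here, although the counts include it.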

Additional observations from a re-analysis of the deposited data

How the results depend on the processing

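PMEPA1, SKIL and SMAD3 kept their direction and their call under all 17 alternatives, and TGFB2 under the 16 in which it was tested. TGFB1 kept its direction in 17 and lost its call in 8, with a highest limma adjusted p of 0.157, and TGFBR2 passed in 3. TGFBR1, SMAD4 and SMAD7 passed in none of those run. The number of the 10 genes called lay between 4 and 6. The fits that each lacked one library (leave-one-out) called between 4 and 6 of the 10 genes and between 5 and 19 of the other pathway genes. Of all genes they called between 1223 and 3753. With each library left out, the difference in TGFB2 share, iGLI2 minus iEV, lay between -14.8 and -12.4 percentage points. The TGFB2 share differed by -7.05 percentage points with INHBA and INHBB added to the sum (exact permutation p = 0.1). The replicate number as a block gave 3928 genes, 21 other pathway genes and 5 of the 10. With this block TGFB1 (limma adjusted p = 0.0723), INHBB (0.0528) and SNAI2 (0.0703) were not called. Newly called as lower were TGFBR2 (limma adjusted p = 0.0385), MYC (0.0114) and LTBP2 (0.0389). Newly called as higher were BHLHE40 (limma adjusted p = 0.0069), SMURF1 (0.0293), TRIM33 (0.0301), CTGF (0.0320), PPM1A (0.0361) and FKBP1A (0.0439). The digit 1 or 2 in the sample codes, whose meaning is not given, as a block gave 2084 genes, 11 other pathway genes and 4 of the 10, and TGFB1 (0.0803), INHBB (0.0526), ACVR1B (0.0765), KLF10 (0.0616) and SNAI2 (0.0674) were not called. Deviations of same-numbered libraries from their group means correlated at 0.204, 0.0919 and 0.0276, and those of differently numbered libraries between -0.193 and 0.117. The highest of the latter was iEV replicate 2 with iGLI2 replicate 3. Since not every library correlated best with its own number, the number was not taken to pair them. Small RNA genes left out, rescaling and the replicate block together, chosen after seeing the data, gave 4889 genes and 29 other pathway genes. The leave-one-out fits of INHBA were also chosen then. The cause of these shifts was not tested. The depth of the libraries is unknown, which limits what can be said of INHBA and other genes at low levels.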

Other observations

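Of the other pathway genes 15 were below the mean of 1 FPKM. The groups did not overlap in 5 of these 15, where 42.0% of all tested genes did not overlap. The tested genes all lie at or above that mean, and the share among all genes below it was not computed. The values of 4 of the 5 follow, chosen after they were seen. FST, which encodes the activin antagonist follistatin, had 0.0216 and 0.0504 FPKM in iEV replicates 1 and 3, was listed at 0 in iEV replicate 2, and had 0.286, 0.306 and 0.250 FPKM in iGLI2 replicates 1, 2 and 3. INHBE, the inhibin beta E chain, had 0.176, 0.378 and 0.264 FPKM in iEV and 0.529, 1.81 and 1.69 FPKM in iGLI2 replicates 1, 2 and 3. GDF11, a ligand that signals through SMAD2 and SMAD3, had 0.620, 0.450 and 0.713 FPKM in iEV and 1.24, 1.22 and 1.09 FPKM in iGLI2 replicates 1, 2 and 3. ACVRL1, a type I receptor best known from endothelium, had 0.283, 0.477 and 0.391 FPKM in iEV and 0.138, 0.171 and 0.111 FPKM in iGLI2 replicates 1, 2 and 3. The fifth was ANGPTL4. The reads behind such values are unknown.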
